A study of Mus musculus with 9 samples.

Results

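The 9 genes described here encode components and receptors of the complement system, namely C1qa, C1qb, C1qc, C3, C4b, Cfb, Cfp, C3ar1 and C5ar1. They were chosen by gene symbol, with no measured value in the rule but with earlier results of these data known, from the 31053 genes of a single-cell RNA sequencing series of mouse brain cells sorted for the myeloid surface protein CD11b. The series holds 9 libraries from adult female C57BL/6 mice, of the substrain C57BL/6J by the study's methods. In the Ctrl group, 3 libraries came from untreated mice, 1 brain each. In the D0 group, 3 libraries came from mice fed a diet with 1200 mg/kg of PLX5622, an inhibitor of the receptor CSF1R on which microglia depend, for 14 days. In the D2 group, 3 libraries came from mice given the same diet and then control diet for 2 days. Each D0 and D2 library pooled 2 brains, so its value is already a mean over animals.

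Complement is a cascade of proteins that tags surfaces for removal. The classical pathway starts with C1q, a hexamer built from the chains encoded by C1qa, C1qb and C1qc, and leads through C4 and C2 to cleavage of C3, whose fragments bind the target and are read by phagocytic receptors. The alternative pathway amplifies C3 cleavage through factor B and is stabilised by properdin, and the small fragments C3a and C5a act on the receptors C3AR1 and C5AR1. In the brain, microglia are the main source of C1q, and tagging by C1q and C3 is known from the removal of synapses by microglia.

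The libraries held 36391 barcodes and 20257894 to 61230741 UMIs each, and no pair of libraries shared more than 7 barcodes. The median depth of the kept cells ran from 4810 to 9243 UMIs per library. One library, D2-3, stood apart: 37.3% of its barcodes exceeded the limit of 20000 UMIs, it held 535 monocyte-like cells against 11 to 130 in the other libraries, and only 640 microglia-like cells. The study left it out, so comparisons rest on the other 8 libraries (28655 cells), with D2-3 given beside them. Cells were clustered without any complement gene and named from marker genes. In microglia-like cells the 10 microglia markers summed to 26780 to 30924 CPM in Ctrl, 19328 to 21475 CPM in D0 and 16717 to 17317 CPM in D2-1 and D2-2. In D2-3 they summed to 8326 CPM. All 10 were detected in each library. Of the 28655 cells, 21865 were microglia-like, 1174 neutrophil-like, 903 endothelial-like, 599 border-associated macrophage-like, 593 dendritic cell-like and 524 monocyte-like. A further 2230 cells of low UMI count were left unnamed. Levels are given as CPM, the UMIs of a gene per 1000000 UMIs summed over the cells of one type in one library. The 3′ reads of this platform give 1 tag per transcript, so CPM was not divided by gene length, and levels were compared within a gene only.

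The 3 C1q genes lie side by side on the minus strand of chromosome 4 in the mouse build GRCm38. C1qb (ENSMUSG00000036905) spans chr4:136880129-136886187, C1qc (ENSMUSG00000036896) spans chr4:136889804-136893065 and C1qa (ENSMUSG00000036887) spans chr4:136895917-136898803. C3 (ENSMUSG00000024164), at chr17:57203970-57228136, also lies on the minus strand and holds the microRNA gene Mir6978 on the same strand. The promoters of C1qb, C1qc and C3 are shown because the levels of the C1q genes varied together across cell types, whereas C3 followed another order. Each sequence runs 5′ to 3′ on the gene's strand over 250 bases before and 50 bases after the start in the RefSeq table for GRCm38.p6. They cover chr4:136886151-136886450 for C1qb, chr4:136892865-136893164 for C1qc and chr17:57228087-57228386 for C3. Capitals mark matches, on either strand, to the PU.1 core GAGGAA, the NF-kB motif (GGGA, any 4 bases, then CC) or the C/EBP motif TTGCNNAA.
C1qb: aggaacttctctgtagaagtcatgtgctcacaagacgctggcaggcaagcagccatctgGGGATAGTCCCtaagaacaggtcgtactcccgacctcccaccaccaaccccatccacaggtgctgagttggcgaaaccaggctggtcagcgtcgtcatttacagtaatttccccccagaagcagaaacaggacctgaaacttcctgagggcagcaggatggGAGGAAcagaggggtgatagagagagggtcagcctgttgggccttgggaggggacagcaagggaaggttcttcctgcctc
C1qc: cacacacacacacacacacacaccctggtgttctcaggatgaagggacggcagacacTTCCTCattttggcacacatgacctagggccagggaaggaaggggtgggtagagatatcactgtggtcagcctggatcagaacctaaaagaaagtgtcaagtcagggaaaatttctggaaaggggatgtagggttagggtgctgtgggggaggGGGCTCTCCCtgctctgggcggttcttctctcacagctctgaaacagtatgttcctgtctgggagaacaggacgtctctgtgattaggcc
C3: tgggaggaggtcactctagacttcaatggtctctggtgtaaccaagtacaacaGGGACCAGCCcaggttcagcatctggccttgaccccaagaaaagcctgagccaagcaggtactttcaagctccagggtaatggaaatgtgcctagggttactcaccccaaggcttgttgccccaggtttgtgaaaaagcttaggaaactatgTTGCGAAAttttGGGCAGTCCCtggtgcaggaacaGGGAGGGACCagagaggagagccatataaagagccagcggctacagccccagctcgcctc

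The C1qb window held 1 PU.1 core match, GAGGAA, whose first base lay 30 bases before the start, and 2 overlapping NF-kB matches. The C1qc window held the PU.1 core on the other strand and 1 NF-kB match. The C3 window held no PU.1 core match, 3 NF-kB matches and 1 C/EBP match, TTGCGAAA, which began 45 bases before the start. Among 32851 promoter windows of the same length, 28.3% held the PU.1 core, 20.7% the NF-kB motif and 10.8% the C/EBP motif, so these matches were common ones and are given as letters in the window only. The AP-1 motif TGANTCA, held by 7.81% of windows, matched in the C3ar1 window alone among the 6 members with a sequence, and the interferon response motif (GAAA, any 2 bases, then GAAA), held by 3.44%, matched in none of them.

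C1q came mainly from microglia-like cells, which gave 93.7% of all C1qa UMIs. C1qa averaged 9013 ± 1367 CPM (SD, n = 8 libraries) in microglia-like cells and 7331 ± 2341 CPM (n = 5 libraries with 20 or more such cells) in border-associated macrophage-like cells, the macrophages of the meninges, perivascular spaces and choroid plexus. The second type stood at 8932 ± 1104 CPM (n = 3) in Ctrl, beside 10287 ± 941 CPM in Ctrl microglia-like cells, and at 4573 and 5287 CPM in its single D0 and D2 libraries of that size. At a Leiden resolution of 0.3 the cluster with its name held 589 dendritic cell-like cells beside 588 of these cells, and its means were then 3865 CPM of C1qa, 3737 CPM of C1qb and 2429 CPM of C1qc. Below them stood neutrophil-like cells at 1248 ± 1086 CPM (n = 7), dendritic cell-like cells at 807 ± 250 CPM (n = 7), endothelial-like cells at 558 ± 220 CPM (n = 8) and monocyte-like cells at 526 ± 515 CPM (n = 7). The last 4 levels overlapped one another within their SD over all groups, but these SDs include differences between groups. Neutrophil-like cells averaged 2664 CPM (n = 2, 2019 to 3308) in Ctrl, 864 CPM in D0 and 410 CPM in D2. In Ctrl they lay above endothelial-like cells, at 467 to 514 CPM (n = 3). The microglia marker P2ry12 also fell in neutrophil-like cells, at means of 751, 146 and 22.5 CPM in Ctrl, D0 and D2. Endothelial-like cells averaged 173 CPM of P2ry12 in Ctrl. Whether microglial content of the neutrophil-like cells bears on their C1qa level was not tested. Endothelial cells are not known to make C1q, and their level serves as the background of free RNA: 20.1% to 55.4% of endothelial-like cells per library held a C1qa UMI.

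C1qb and C1qc followed the same pattern. C1qb averaged 9082 ± 641 CPM in microglia-like and 7006 ± 1528 CPM in border-associated macrophage-like cells, and C1qc averaged 6352 ± 713 and 4664 ± 1297 CPM. The unnamed low-UMI cells stood close to them, at 8260 ± 1021 CPM of C1qa, 9396 ± 716 CPM of C1qb and 5471 ± 571 CPM of C1qc (n = 8). The proportions of the 3 chains stayed within narrow ranges, but the C1qa share was higher in Ctrl. In microglia-like cells it was 39.6%, 38.7% and 39.2% in Ctrl, 35.3%, 35.3% and 37.0% in D0, and 35.6% and 33.0% in D2. In border-associated macrophage-like cells it was 40.5%, 39.6% and 39.7% in Ctrl, 34.1% in D0-1 and 36.8% in D2-2. This difference was not tested. Of the C1q UMIs of microglia-like cells, C1qa gave 33.0% to 39.6%, C1qb 35.4% to 39.7% and C1qc 23.8% to 27.5% across libraries. In border-associated macrophage-like cells the corresponding ranges were 34.1% to 40.5%, 35.2% to 40.6% and 23.0% to 25.2%. In endothelial-like cells they were 32.5% to 38.3%, 35.3% to 47.2% and 16.3% to 27.2%, which overlapped the ranges of the macrophage types.

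**Figure D1:**
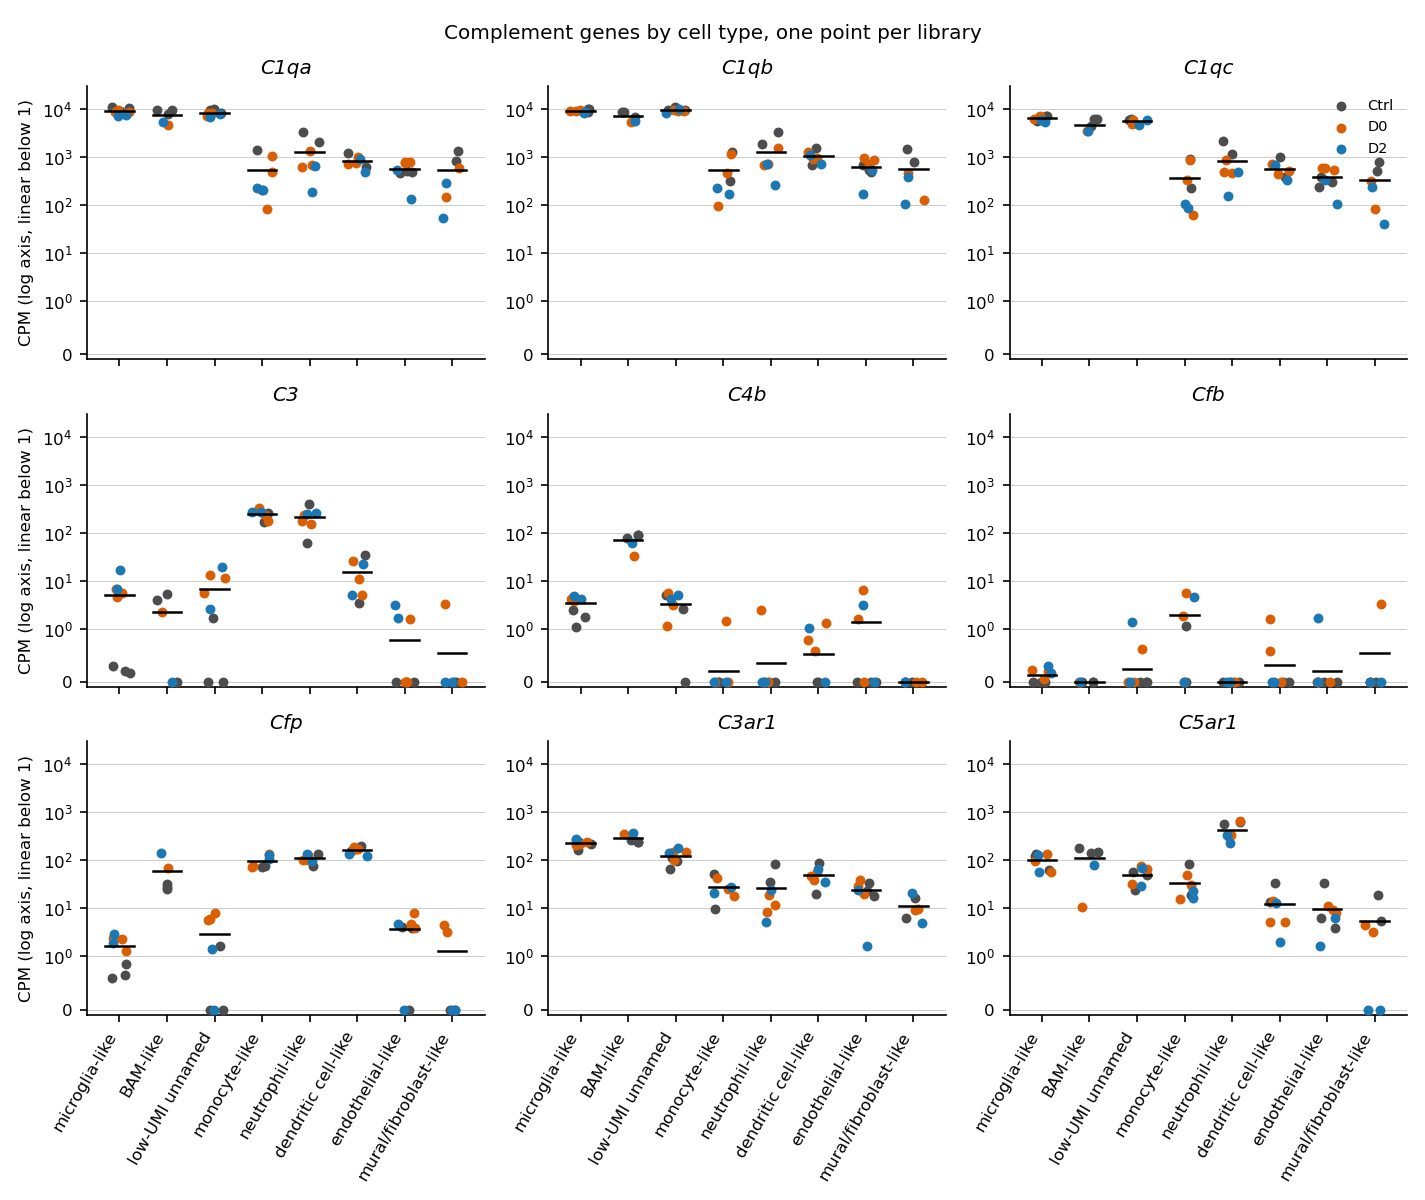
CPM of each of the 9 members (log axis, linear below 1 CPM) by cell type, with 1 point per library with at least 20 cells of that type, coloured by group, and a bar at the mean. The C1q chains were highest in microglia-like, border-associated macrophage-like (BAM-like) and unnamed low-UMI cells, C3ar1 in the first 2 of these, C3 in monocyte-like (240.6 CPM) and neutrophil-like cells (216 CPM), Cfp in dendritic cell-like cells (165 CPM) and C5ar1 in neutrophil-like cells (436 CPM).

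Over the 60 sums of a cell type in a library, C1qb and C1qc both had r = 0.994 with C1qa on the log2(CPM + 10) scale. Outside complement, the genes most like C1qa included Trem2 (r = 0.973), Lgmn (r = 0.970), Olfml3 (r = 0.961) and Fcrls (r = 0.959), all well known from microglia. The 5 most like C3 were Chil3 (r = 0.939), Ifitm6 (r = 0.938), Hp (r = 0.933), Clec4e (r = 0.921) and Nfe2 (r = 0.915), and the r of C3 with C1qa was -0.28. The sums share libraries and depth, and these correlations are given as a description of 6323 genes.

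C3, the central protein on which all pathways converge, stood highest in monocyte-like and neutrophil-like cells and low in microglia-like cells. It averaged 241 ± 58.6 CPM (n = 7, 164 to 330) in monocyte-like cells and 216 ± 103 CPM (n = 7, 61.5 to 392) in neutrophil-like cells, which did not differ beyond their spread. Dendritic cell-like cells averaged 15.2 ± 12.1 CPM, microglia-like cells 5.09 ± 5.47 CPM and endothelial-like cells 0.791 ± 1.18 CPM. By number, 42.3% of all C3 UMIs came from neutrophil-like, 28.7% from monocyte-like and 23.6% from microglia-like cells.

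C4b, a C4 gene at chr17:34728380-34743882 (ENSMUSG00000073418), had another order. It averaged 69.9 ± 23.4 CPM (n = 5, 32.7 to 89.0) in border-associated macrophage-like cells and 3.33 ± 1.38 CPM (n = 8) in microglia-like cells, and the cluster at the resolution of 0.3 stood at 39.2 CPM. The single library with enough astroglial cells stood at 49.4 CPM. C4b has a near-identical neighbour, C4a, which has no entry under that symbol among the counted genes. Reads of C4a may have been counted as C4b or dropped, so the C4b level is uncertain. Border-associated macrophage-like cells gave 38.3% of C4b UMIs although they were 599 of 28655 cells, and microglia-like cells gave 53.2%.

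The alternative pathway genes were sparse in microglia-like cells. Cfp at chrX:20925454-20931555 (ENSMUSG00000001128), which encodes properdin, averaged 165 ± 27.5 CPM (n = 7) in dendritic cell-like, 111 ± 23.2 CPM (n = 7) in neutrophil-like and 95.9 ± 28.6 CPM (n = 7) in monocyte-like cells, against 1.61 ± 0.891 CPM (n = 8) in microglia-like cells. The neutrophil-like and monocyte-like levels did not differ beyond their spread. Cfb at chr17:34856374-34862518 (ENSMUSG00000090231), which encodes factor B, gave 36 UMIs in all, 21 of them in microglia-like and 8 in monocyte-like cells. Cfb overlaps the gene Gm20547 on the same strand, so its reads may be shared.

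The receptors for C3a and C5a differed in their leading cell type. C3ar1 at chr6:122847138-122856161 (ENSMUSG00000040552) averaged 293 ± 61.3 CPM (n = 5) in border-associated macrophage-like and 229 ± 36.1 CPM (n = 8) in microglia-like cells, and 50.2 CPM (n = 7, 20.2 to 87.9) in dendritic cell-like cells. At the resolution of 0.3 the order of the first 2 turned, since the border-associated macrophage-like cluster then held 144 CPM. C5ar1 at chr7:16246743-16259540 (ENSMUSG00000049130) averaged 436 ± 170 CPM (n = 7, 226 to 645) in neutrophil-like cells. It averaged 113 ± 67.8 CPM (n = 5) in border-associated macrophage-like cells and 99.5 ± 35.6 CPM (n = 8) in microglia-like cells, which overlapped over all groups. In Ctrl they did not overlap, at 158 CPM (n = 3, 144 to 180) and 107 CPM (n = 3, 61.7 to 137). The single D0 and D2 libraries of the first type with 20 or more cells stood at 10.9 and 80.7 CPM. Because microglia-like cells were so many, they still gave 82.1% of C5ar1 and 93.5% of C3ar1 UMIs.

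Within microglia-like cells, the comparison of D0 and D2 with Ctrl asked how complement expression differed in the cells that remained after CSF1R inhibition and in those present at early repopulation. C4b and Cfp rose in both groups, and no tested member fell. Cfb was not tested. C3 also rose in both, but it passed the filter on low counts only through D0 and D2, so it is not read against the share of all genes. The C1q chains and both receptors did not pass the test. The test was edgeR's quasi-likelihood test with Benjamini-Hochberg adjustment over 12403 genes, run on UMIs summed per library. It called 12.3% of all tested genes higher and 7.39% lower in D0, and 10.8% higher and 7.71% lower in D2. Both comparisons used the same 3 Ctrl libraries. A sum per library does not tell fewer expressing cells from less RNA per cell, and for the pooled libraries the spread is between pools and not between mice.

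C1qa stood at 9218, 10652 and 10989 CPM in Ctrl-1 to Ctrl-3, at 8494, 8622 and 9500 CPM in D0-1 to D0-3, and at 7425 and 7204 CPM in D2-1 and D2-2. The D2 libraries lay below all others, while D0 overlapped Ctrl. The fitted log2 fold change was -0.01 ± 0.12 (SE, adjusted p = 0.954 by edgeR, 95% interval -0.27 to 0.25) in D0. In D2 it was -0.39 ± 0.13 (adjusted p = 0.0673 by edgeR, 95% interval -0.68 to -0.10), and without Ctrl-1 it was -0.47 with adjusted p = 0.0164. C1qa was thus just outside the threshold at D2, and 34.6% of all tested genes had both D2 libraries below every Ctrl library. On the scale of total UMIs the median gene was lower by a log2 ratio of -0.24 in D0 and -0.13 in D2 than in Ctrl, where C1qa stood at -0.21 and -0.49.

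C1qb stood at 8495, 9733 and 9950 CPM in Ctrl, 9448, 9072 and 9228 CPM in D0, and 8074 and 8652 CPM in D2. Its log2 fold change was 0.18 (95% interval -0.07 to 0.42, adjusted p = 0.286 by edgeR) in D0 and -0.06 (adjusted p = 0.762) in D2. C1qc stood at 5537, 7134 and 7075 CPM in Ctrl, 6117, 6717 and 6960 CPM in D0, and 5333 and 5947 CPM in D2. Ctrl overlapped D0 and D2 for both chains, D2 lay below D0, and the fitted value of C1qc was 0.20 (95% interval -0.12 to 0.53, adjusted p = 0.352 by edgeR) in D0 and -0.12 (adjusted p = 0.653) in D2.

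Together the 3 chains took up 2.33%, 2.75% and 2.80% of all UMIs of microglia-like cells in Ctrl, 2.41%, 2.44% and 2.57% in D0, and 2.08% and 2.18% in D2. With each cell thinned to 2000 UMIs, the median microglia-like cell held 46, 55 and 56 C1q UMIs in Ctrl, 48, 49 and 51 in D0, and 40 and 43 in D2. All 3 chains were detected in 99.9% to 100% of the thinned cells of each of these 8 libraries. D2-3 held 1.07% C1q and a median of 20 UMIs, with all chains in 95.2% of thinned cells. In each group nearly every microglia-like cell carried C1q at this depth.

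**Figure D2:**
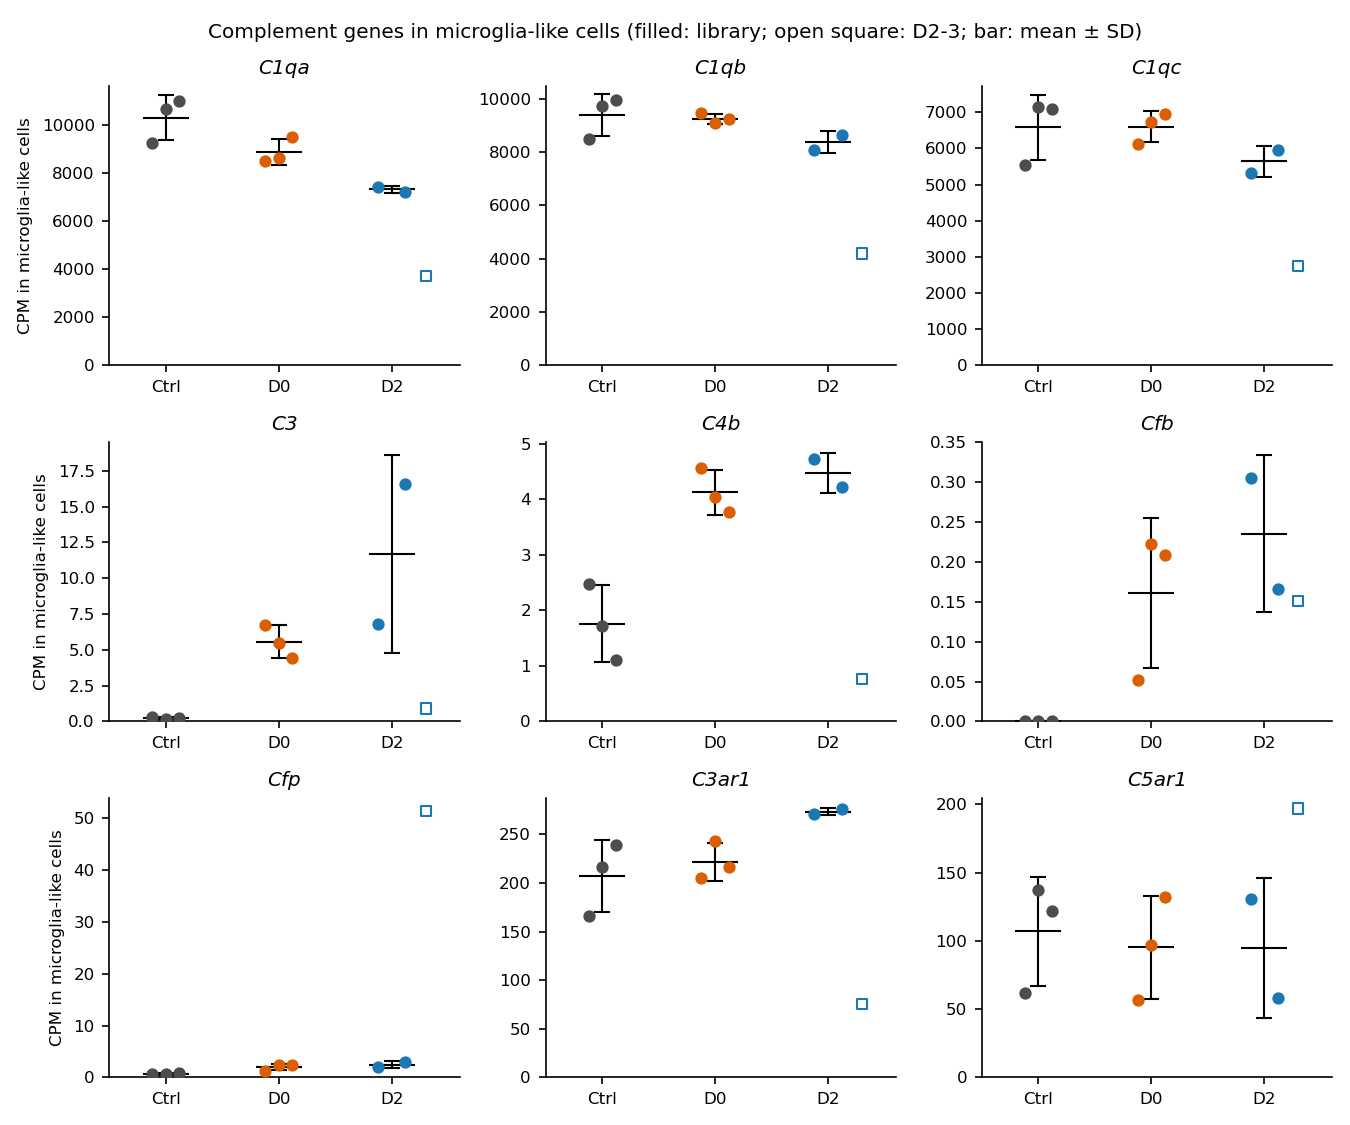
CPM of the 9 members in microglia-like cells (linear axes from 0), 1 filled point per library, with bars at the group mean ± SD. An open square marks D2-3, which is left out of the mean. C3 was at or below 0.304 CPM in the 3 Ctrl libraries and at 4.45 CPM or more in the 3 D0 libraries and in D2-1 and D2-2, while the C1q chains overlapped between Ctrl and D0.

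C3 stood at 0.304, 0.161 and 0.204 CPM in Ctrl, from 8, 3 and 5 UMIs. It stood at 6.76, 5.49 and 4.45 CPM in D0, from 129, 198 and 85 UMIs, and at 6.81 and 16.6 CPM in D2, from 134 and 200 UMIs. Every D0 and D2 library lay far above every Ctrl library, and the 2 D2 libraries differed from each other by more than D0 from D2-1. The log2 fold change was 4.78 ± 0.45 (adjusted p = 9.21e-05 by edgeR) in D0 and 5.75 ± 0.46 (adjusted p = 3.46e-05) in D2. The ratio of summed UMIs was 24.1 in D0 (95% counting interval 14.7 to 42.6) and 45.7 in D2 (27.7 to 80.8). C3 passed the filter on low counts only through D0 and D2, since no Ctrl library reached the minimum of 0.515 CPM, so among the genes that passed it had to differ. Over all kept myeloid cells, neutrophil-like cells not among them, its change was 1.89 in D0 (adjusted p = 0.0607 by edgeR) and 2.35 in D2 (adjusted p = 0.0426).

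Few microglia-like cells carried C3. The share of cells with a C3 UMI was 0.118%, 0.141% and 0.155% by library for Ctrl, 2.85%, 3.43% and 3.12% for D0, and 2.89% and 6.92% for D2. After thinning to 2000 UMIs per cell, 0.0211% ± 0.0183 (SD) of Ctrl cells carried C3, against 0.812% ± 0.0700 of D0 and 1.64% ± 0.783 of D2 cells. A two-sided exact permutation test over libraries gave p = 0.1 for D0 and p = 0.2 for D2, the smallest values that 3 against 3 and 2 against 3 libraries allow. In endothelial-like cells, which are not known for C3, the share ran from 0% to 0.719% per library, at median depths of 2857.5 to 6619 UMIs against 5363 to 10447 in microglia-like cells. The Ctrl shares of microglia-like cells lay within that range, and the D0 and D2 shares lay above it. With 48 to 188 endothelial-like cells per library, the range cannot resolve shares as low as those of Ctrl, which cannot be told from background. After thinning to 2000 UMIs the endothelial-like share of C3 was 0% throughout. Cells with 3 or more C3 UMIs numbered 1, 0 and 0 in Ctrl, 11, 15 and 5 in D0, and 9 and 23 in D2.

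Markers of cell types rich in C3 were also higher in D0 and D2 than in Ctrl, but did not follow C3 library by library. Within D0, C3 was highest in D0-1, where the neutrophil and monocyte marker sums were both lowest. Between D2-1 and D2-2, C3 and both sums were higher in D2-2. The 9 neutrophil markers summed to 7.08 to 32.7 CPM in Ctrl, 58.6 to 201 CPM in D0 and 51.8 to 197 CPM in D2 microglia-like cells, and the 9 monocyte markers to 7.04 to 8.73, 9.17 to 16.4 and 14.5 to 25.8 CPM. The ratio of C3 to these markers was measured in both places. Neutrophil-like cells held 0.0515 to 0.0764 C3 UMIs per 100 neutrophil marker UMIs in D0, where microglia-like cells held 2.73 to 11.5. Monocyte-like cells held 2.33 to 4.09 C3 UMIs per 100 monocyte marker UMIs in D0, where microglia-like cells held 33.4 to 73.7. In Ctrl-2 and Ctrl-3 monocyte-like cells held 3.21 and 3.90, and microglia-like cells 1.94 and 2.34, from 3 and 5 C3 UMIs. For neutrophil markers the order in these Ctrl libraries was that of D0. After every cell with a UMI of a neutrophil, monocyte or dendritic cell marker was removed, the log2 fold change of C3 was 4.61 in D0 and 4.91 in D2. Both were called, for a gene that passed the filter in the main fit only through D0 and D2. The removal was unequal. Counted without cells of high Lgals3, it left 2849 of 3376, 1682 of 2132 and 2681 of 3225 cells in Ctrl. In D0 it left 2320 of 3091, 772 of 3733 and 1133 of 1761, and in D2 1917 of 3015 and 323 of 1532. A further 4 to 106 cells with high Lgals3 were left per library, and these were part of the fit.

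**Figure D3:**
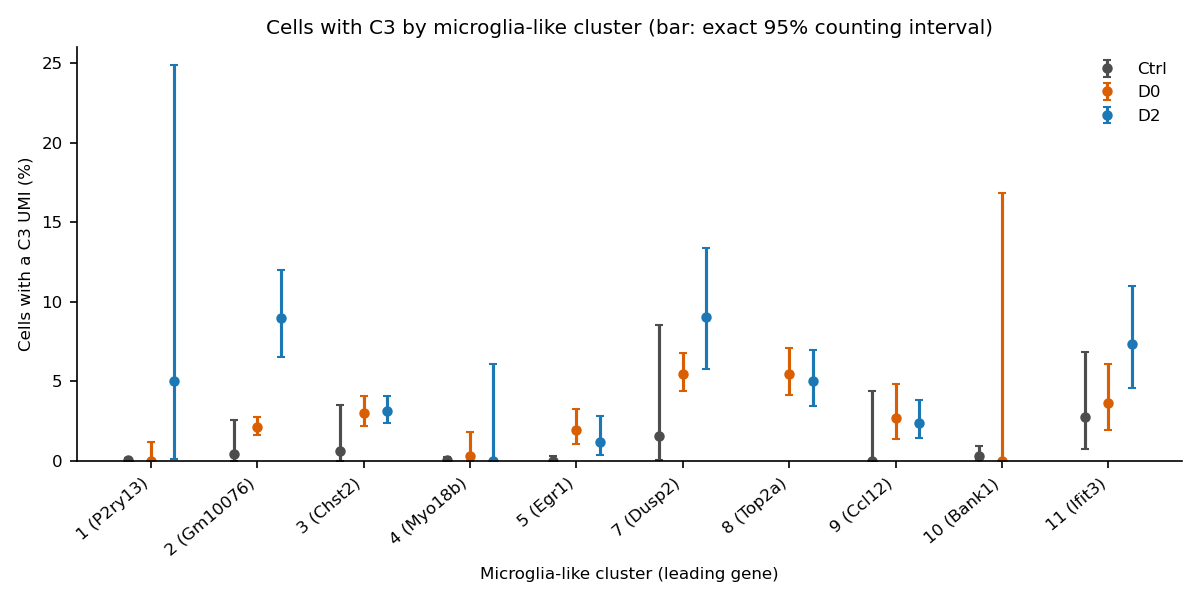
Share of cells with a C3 UMI (percent) in each microglia-like cluster, by group, with exact 95% binomial intervals that cover counting error only. Shares reached 9.05% in the D2 cells of the cluster led by Dusp2 (5.96% in D2-1 and 14.1% in D2-2), against 1 of 3361 Ctrl cells in the cluster led by P2ry13.

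Among the microglia-like clusters, cells with C3 were spread over several and were not limited to one. In the clusters that held most Ctrl cells, led by P2ry13 and Myo18b, C3 was found in 1 of 3361 and 1 of 2552 Ctrl cells, and in 0 of 307 and 1 of 310 D0 cells. A count of 0 of 307 allows a share of up to 1.19% by the exact interval. In the cluster led by Dusp2, whose cells also carried the cytokine genes Il1b and Tnf, the share was 5.47% in D0 and 9.05% in D2. In the mitotic cluster led by Top2a it was 5.46% in D0 and 32 of 640 cells in D2. In the cluster led by the interferon-induced gene Ifit3 it was 2.74% (4 of 146 cells) for Ctrl, 3.62% for D0 and 7.34% for D2. Of the 16 Ctrl UMIs of C3, 8 lay in that last cluster. All came from 4 of its 83 Ctrl-1 cells, while 0 of its 46 Ctrl-3 cells held C3. In the largest D0 cluster, led by Gm10076, it was 2.15% for D0 (95 UMIs) and 8.97% for D2 (72 UMIs), and in that led by Chst2 3.02% (62 UMIs) and 3.14% (97 UMIs). These shares pool the cells of a group's libraries, so they carry no test, and they were not thinned: the median depth was 10441 UMIs in the cluster led by Dusp2, 9680.5 in that led by Top2a, 7370 in that led by Ifit3 and 6646.5 in that led by P2ry13. The pooled D2 shares hide a difference between D2-1 and D2-2. These 2 libraries stood at 2.73% and 13.1% in the cluster led by Gm10076, beside 1.64% to 3.87% in the D0 libraries. For Dusp2 they stood at 5.96% and 14.1%, beside 2.58% to 6.15% in D0. For Top2a they stood at 2.91% and 8.02%, beside 5.04% to 6.72% in D0. In these clusters D2-1 thus lay within or below the D0 libraries.

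C4b stood at 2.47, 1.71 and 1.10 CPM in Ctrl, 4.56, 4.05 and 3.77 CPM in D0, and 4.73 and 4.23 CPM in D2. All D0 and D2 libraries lay above all Ctrl libraries, as was so for 12.5% of all tested genes in D0 and 18.1% in D2. The log2 fold change was 1.43 ± 0.26 (adjusted p = 0.00522 by edgeR) in D0 and 1.46 ± 0.29 (adjusted p = 0.00771) in D2. The call was lost when barcodes above 20000 UMIs were kept (0.25 with adjusted p = 0.412 in D0, and 0.28 with adjusted p = 0.443 in D2) and when the fit had a term for the Cell Ranger version (1.01 and 1.04, adjusted p = 0.0699 and 0.0877). In the fit with the version term, Ctrl-1 was the only Ctrl library with the version of the D0 and D2 libraries. Over all kept myeloid cells the change of C4b was -0.23 in D0 and -0.0120 in D2. With cells thinned to 2000 UMIs, C4b was found in a mean of 0.338% of Ctrl, 0.704% of D0 and 0.980% of D2 cells (exact permutation p = 0.1 and p = 0.2, the smallest possible). Endothelial-like cells gave 0% to 1.56% by library after the same thinning, a range that holds all of these shares. That range rests on 48 to 188 endothelial-like cells per library before thinning. It cannot resolve shares so low, so it does not tell them from background. The 8 border-associated macrophage markers summed to 7.44 to 11.2 CPM in Ctrl, 7.69 to 10.6 CPM in D0 and 10.3 to 15.8 CPM in D2. Among the microglia-like clusters, that led by Ifit3 averaged 19.9 CPM of C4b over libraries and the others 1.01 to 5.16 CPM, and it held 146 of 8733 Ctrl, 359 of 8585 D0 and 286 of 4547 D2 cells. Without its cells the change of C4b was 1.57 in D0 (adjusted p = 0.00642 by edgeR) and 1.53 in D2 (adjusted p = 0.0118).

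Cfp stood at 0.647, 0.589 and 0.857 CPM in Ctrl, 1.26, 2.41 and 2.30 CPM in D0, and 1.93 and 2.90 CPM in D2. Here too the D0 and D2 libraries lay above Ctrl, as for 12.5% and 18.1% of all tested genes. Its log2 fold change was 1.73 ± 0.36 (adjusted p = 0.00943 by edgeR) in D0 and 1.87 ± 0.40 (adjusted p = 0.0103) in D2. It was lost in D2 without D2-2 (1.53, adjusted p = 0.0900) and without cells carrying a neutrophil, monocyte or dendritic cell marker (1.47, adjusted p = 0.0652). It was lost in D0 among non-dividing cells (1.48, adjusted p = 0.0607), and in both groups with no upper limit on UMIs (1.38 and 1.04) and in a fit with Cell Ranger version added (1.92 and 2.05, adjusted p = 0.0582 and 0.0616). Cfp was most abundant in dendritic cell-like cells, which held 8.83 to 11.9 Cfp UMIs per 100 dendritic cell marker UMIs in D0 against 16.4 to 31.2 in microglia-like cells. Neutrophil-like cells held 0.0273 to 0.0444 Cfp UMIs per 100 neutrophil marker UMIs in D0, against 1.2 to 3.61 in microglia-like cells, and monocyte-like cells 0.999 to 1.69 per 100 monocyte marker UMIs against 13.7 to 19.6. For dendritic cell markers the order was reversed in Ctrl-1 and Ctrl-3. There dendritic cell-like cells held 14.75 and 10.4, against 5.86 and 6.27 in microglia-like cells. For neutrophil and monocyte markers the order in Ctrl-2 and Ctrl-3 was that of D0. With cells thinned to 2000 UMIs, 0.0475% to 0.353% of microglia-like cells per library held a Cfp UMI, against 0% to 1.16% of endothelial-like cells. With 48 to 188 endothelial-like cells per library before thinning, that range cannot resolve shares so low, so it does not tell them from background. By CPM, endothelial-like cells averaged 2.64, 5.55 and 2.31 CPM of Cfp in Ctrl, D0 and D2, from only 3, 11 and 3 UMIs. Microglia-like cells averaged 0.697, 1.99 and 2.42 CPM, from 49, 155 and 73 UMIs. Their mean Cfp was thus below that of endothelial-like cells in Ctrl and D0. The 9 dendritic cell markers summed to 11.0 to 14.0 CPM in Ctrl, 5.87 to 14.7 CPM in D0 and 5.88 to 7.62 CPM in D2.

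Cfb did not reach the count minimum in any library and was not tested. Its UMIs numbered 0, 0 and 0 in Ctrl, 1, 8 and 4 in D0, and 6 and 2 in D2. The highest level was 0.305 CPM in D2-1.

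C3ar1 stood at 166, 217 and 239 CPM in Ctrl, 206, 243 and 216 CPM in D0, and 271 and 276 CPM in D2. D0 overlapped Ctrl, and both D2 libraries lay above all others, as was so for 18.1% of all tested genes between D2 and Ctrl. Its log2 fold change was 0.30 ± 0.17 (adjusted p = 0.237 by edgeR, 95% interval -0.07 to 0.67) in D0 and 0.50 ± 0.18 (adjusted p = 0.0887, 95% interval 0.09 to 0.91) in D2. In a fit with Cell Ranger version added, where only Ctrl-1 shared the version of the D0 and D2 libraries, the values were 0.70 and 0.90. In D2 the change of C3ar1 passed with thinned cells (0.65, adjusted p = 0.0251 by edgeR). Over 25 alternatives, fitted by edgeR or DESeq2, its adjusted p ran from 0.01585 to 0.781 in D2 and from 0.0330 to 0.769 in D0.

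C5ar1 varied within each group as widely as between them. It stood at 61.7, 137 and 122 CPM in Ctrl, 57.0, 96.8 and 132 CPM in D0, and 131 and 58.3 CPM in D2, so the ranges overlapped fully. Its log2 fold change was 0.03 ± 0.40 (adjusted p = 0.967 by edgeR, 95% interval -0.87 to 0.94) in D0 and -0.09 ± 0.45 (adjusted p = 0.911) in D2. 

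**Figure D4:**
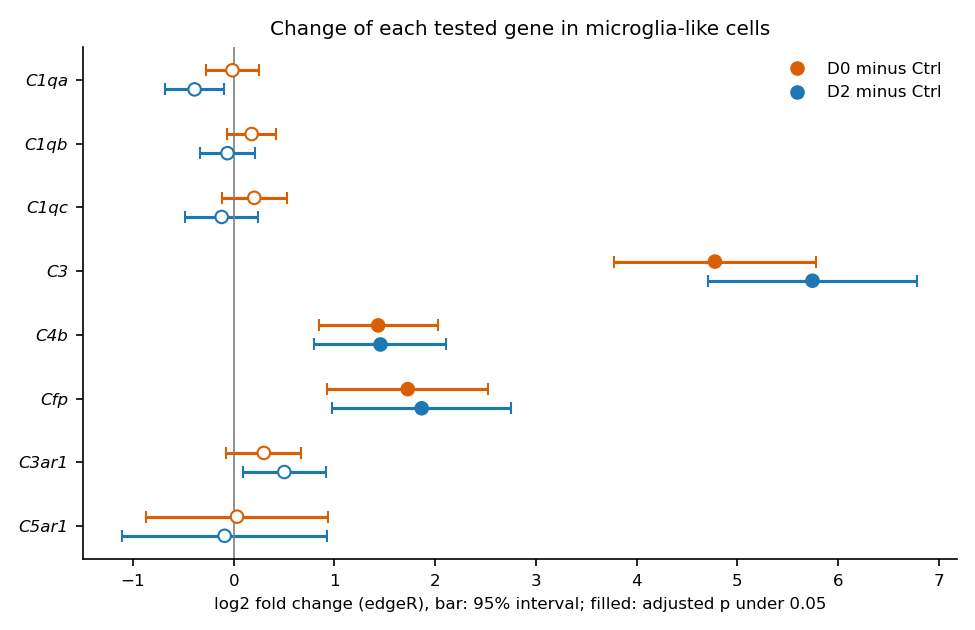
Log2 fold changes of the tested members in microglia-like cells against Ctrl, for D0 and D2, with 95% intervals from the edgeR fit. C3 lies at 4.78 and 5.75, and C4b and Cfp between 1.43 and 1.87. The intervals of C5ar1, C1qb and C1qc span 0 in both D0 and D2, and those of C1qa and C3ar1 in D0 only, though neither of these passed the adjusted test in D2.

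Between D2 and D0 no member passed, and edgeR called 0 of 12403 genes, with 838 at an unadjusted p under 0.05 and 27 called by DESeq2. The fitted log2 difference of C3 was 0.97 (adjusted p = 0.700 by edgeR, and 0.17 without D2-2). Both D2 libraries lay above all D0 libraries for C3 and C3ar1 (0.20), as did 17% of all tested genes. All 3 C1q chains had both D2 libraries below all D0 libraries, as did 6.97% of genes, at fitted values of -0.38 for C1qa, -0.24 for C1qb and -0.32 for C1qc, none of which passed.

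D2-3 departed from the other D2 libraries for most members. Its microglia-like cells held 0.908 CPM of C3 (6 UMIs), 0.757 CPM of C4b, 51.3 CPM of Cfp, 75.4 CPM of C3ar1 and 197 CPM of C5ar1, and 3727, 4194 and 2743 CPM of C1qa, C1qb and C1qc. With D2-3 in the fit, C3 remained called in D0 (4.80, adjusted p = 0.0115 by edgeR) and D2 (5.32, adjusted p = 0.00447), and C4b did not (1.45 and 1.12, adjusted p = 0.151 and 0.158). Cfp was then called in D2 alone (5.09, adjusted p = 0.0354).

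Of the other 45 complement genes of a list that covers both pathways, their regulators and further receptors, 17 were tested in microglia-like cells. In D0, 2 rose and 1 fell, where 12.3% of all tested genes were higher and 7.39% lower. In D2, 2 rose and 3 fell, where the shares of all genes were 10.8% and 7.71%. Their median log2 fold change was 0.18 in D0 and 0.22 in D2, beside -0.05 and -0.03 over all genes. C5ar2, the second C5a receptor, fell by 0.89 on the log2 scale in D0 (adjusted p = 0.0141 by edgeR) and by 1.28 in D2 (adjusted p = 0.00505), with mean levels of 56.0, 26.4 and 21.5 CPM in Ctrl, D0 and D2. Itgam, the CD11b chain of complement receptor 3 and the antigen used in the sort, fell by 0.71 in D2 (adjusted p = 0.00332; means 539, 440 and 306 CPM). Lrp1, an endocytic receptor, fell by 0.50 in D2 (adjusted p = 0.0287). The genes that rose were both under 20 CPM and are named after their values were seen: Itgax, the CD11c chain of complement receptor 4 (1.84 in D0 and 2.00 in D2), and Cd59a, an inhibitor of the terminal pathway (2.03 and 2.09). Cd59a averaged only 0.126, 0.448 and 0.551 CPM in Ctrl, D0 and D2. Its highest Ctrl library, at 0.190 CPM, was under the filter minimum of 0.515 CPM. Like C3, Cd59a thus passed the filter only through D0 and D2. It is counted among the rises above but is not read against the share of all genes.

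The study set apart cells with MAC2, the protein encoded by Lgals3, so MAC2+ microglia-like cells were compared with the other microglia-like cells of the same library. MAC2+ cells numbered 717, against 21148 others, and ranged from 12 in Ctrl-2 to 179 in D0-2. Of the 8 members tested, 3 were higher in MAC2+ cells, C3 and the 2 anaphylatoxin receptors, and none was lower. edgeR with library as a block called 9.5% of 10670 genes higher and 10.1% lower. The share of all genes that were higher, or lower, in MAC2+ cells of all 8 libraries was not counted.

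C3ar1 was higher in MAC2+ cells of 8 of 8 libraries, at 368 ± 29.6 against 223 ± 33.2 CPM, with no overlap between the ranges of 328 to 413 and 165 to 263 CPM. The log2 difference was 0.74 ± 0.06 (adjusted p = 1.04e-08 by edgeR). C5ar1 was also higher in 8 of 8 libraries, at 192 ± 72.9 against 96.1 ± 37.7 CPM, with overlapping ranges and a log2 difference within libraries of 1.05 ± 0.12 (adjusted p = 7.01e-07). C3 was higher in the 5 D0 and D2 libraries and had 0 UMIs in the MAC2+ cells of all 3 Ctrl libraries, which held 63 such cells. Its log2 difference was 1.64 ± 0.21 (adjusted p = 2.58e-06). Markers of other cell types differed too: the 9 neutrophil markers summed to 9.80 to 706 CPM in MAC2+ and 7.06 to 200 CPM in the other cells and were higher in MAC2+ cells of 7 of 8 libraries, and the 9 monocyte markers summed to 0 to 75.4 against 7.06 to 26.4 CPM, higher in 5 of 8. All of these markers were detected in both. With every cell carrying a neutrophil, monocyte or dendritic cell marker removed, in the 7 libraries with 5 or more MAC2+ cells left, C3ar1 differed by 0.73 (adjusted p = 7.38e-06 by edgeR) and C5ar1 by 1.16 (adjusted p = 1.54e-06). C3 did not reach the count minimum there and was not tested; it was higher in MAC2+ cells of 5 of 7 libraries, at 0 to 30.1 against 0.204 to 5.95 CPM, from 47 UMIs in MAC2+ cells.

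The C1q chains were lower in MAC2+ cells of all 8 libraries, an order that was not counted over all genes, by small amounts that did not pass. C1qa averaged 8216 ± 1120 against 9035 ± 1354 CPM (-0.12, adjusted p = 0.0787 by edgeR), C1qb had -0.10 (adjusted p = 0.132) and C1qc -0.13 (adjusted p = 0.0567). C4b (0.09, adjusted p = 0.926) and Cfp (0.33, adjusted p = 0.651) did not pass either. Of the other complement genes, 11 were tested, of which Itgax (2.23), C1qbp (0.56) and Calr (0.41) were among the higher genes and Itgam (-0.58) among the lower.

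**Figure D5:**
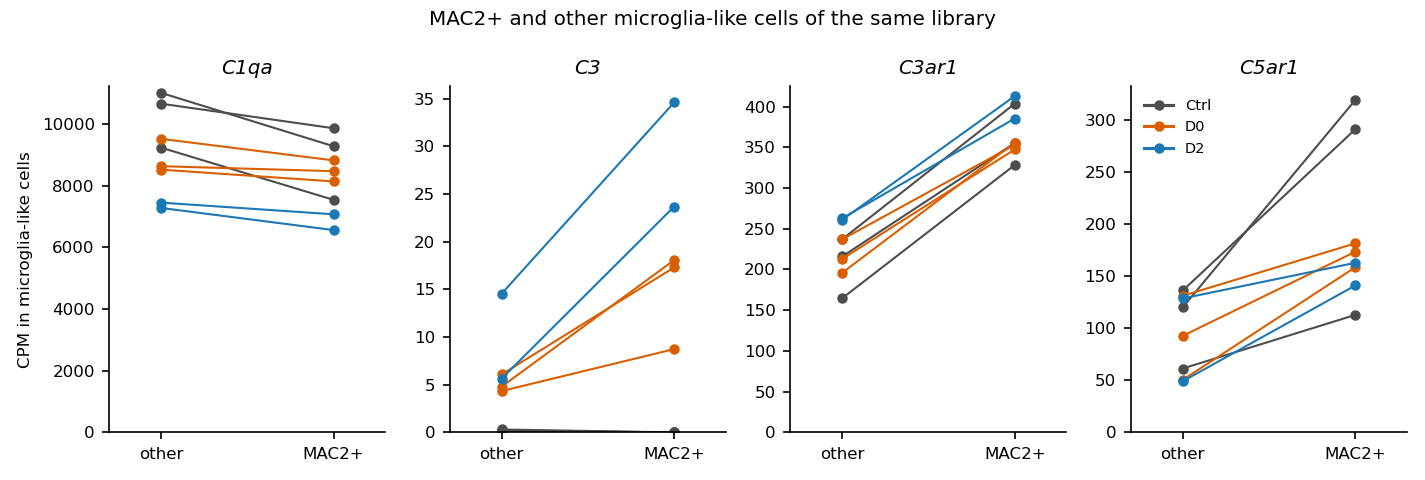
CPM of C1qa, C3, C3ar1 and C5ar1 in other and in MAC2+ microglia-like cells (linear axes from 0), with a line joining both values of each of the 8 libraries, coloured by group. C3ar1 and C5ar1 were higher in MAC2+ cells in 8 of 8 libraries, C3 in the 5 D0 and D2 libraries, and C1qa was lower in 8 of 8 by an amount that did not pass the test. The share of all genes with such an order was not counted.

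The choice of cells mattered for this comparison. Among all kept myeloid cells, MAC2+ cells averaged 3880 CPM of C1qa against 8955 CPM, 66.3 CPM of C3 against 4.63 CPM and 79.6 CPM of Cfp against 2.65 CPM. Those MAC2+ cells also averaged 259 CPM of the monocyte marker Ly6c2 against 0.384 CPM and 703 CPM of Plac8 against 5.98 CPM. C3ar1 then had a difference of -0.21 (adjusted p = 0.214 by edgeR) and C5ar1 0.14 (adjusted p = 0.533).

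Border-associated macrophage-like cells were the second C1q-rich type, with 187, 82 and 196 cells in Ctrl, 73, 14 and 12 in D0, and 15 and 20 in D2. The planned minimum of 20 cells per library left a group too small, so libraries with 10 or more cells were used. The microglia marker P2ry12 averaged 1491 CPM (904 to 1805) in the Ctrl cells of this type, against 93.6 CPM in D0-1 and 99.3 CPM in D2-2. Microglia-like cells averaged 2825, 1094 and 575 CPM in Ctrl, D0 and D2. Whether microglial content of the Ctrl cells bears on the changes below was not tested. The share of all genes whose D0 and D2 libraries lay to one side of Ctrl was not counted in these cells. None of the 7 members tested passed in D0 or D2, where 0.609% and 0% of 5255 genes were called. C1qa stood at 7660, 9637 and 9500 CPM in Ctrl, 4573, 6761 and 6524 CPM in D0, and 7173 and 5287 CPM in D2, below Ctrl in each D0 and D2 library, with changes of -0.37 (adjusted p = 0.50 by edgeR) and -0.53 (adjusted p = 0.561). C4b stood at 78.4, 87.4 and 89.0 CPM in Ctrl, 32.7, 182 and 25.6 CPM in D0, and 373 and 62.1 CPM in D2, without order between the groups. C3ar1 stood at 244, 244 and 260 CPM in Ctrl, 346, 269 and 358 CPM in D0, and 319 and 372 CPM in D2, above Ctrl in each D0 and D2 library, but its D0 change of 0.58 had adjusted p = 0.211 by edgeR.

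C5ar1 in these cells stood at 144, 151 and 180 CPM in Ctrl, 10.9, 43.6 and 128 CPM in D0, and 121 and 80.7 CPM in D2. All D0 and D2 libraries lay below Ctrl, an order that was not counted over all genes in these cells. The D0 change was -1.52 (adjusted p = 0.227 by edgeR), and without D0-3 it was -2.78 (adjusted p = 0.0425). The difference between this change and that of microglia-like cells, tested as an interaction with library as a block, was -1.75 ± 0.42 (adjusted p = 0.0298 by edgeR) in D0, where 1.26% of 11858 genes had a lower and 0.379% a higher change. This call was lost without Ctrl-1 (-1.48, adjusted p = 0.0911) and without D0-1 (-1.19, adjusted p = 0.144). In D2 it was -0.67 (adjusted p = 0.735), where 0.481% of genes were called. The same test for C3 gave -4.60 (adjusted p = 0.0793) in D0, where the fitted size depends on few UMIs.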

How the data were processed

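Cells of mouse brain sorted for CD11b were profiled with 10x Genomics 3′ version 3 chemistry. The authors aligned reads to mm10 with Cell Ranger and deposited raw UMI counts per gene and barcode, neither normalized nor filtered further, and the labels and file headers give version 3.0.2 in 6 libraries and 3.1.0 in 3. Version 3.1.0 was that of Ctrl-2, Ctrl-3 and D2-3. Among the 8 libraries compared, Ctrl-1 was the only Ctrl library with the version of all D0 and D2 libraries. Cell Ranger version and group are thus largely confounded, and fits with a version term in effect compare D0 and D2 with Ctrl-1.

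A barcode was kept if it held between 500 and 20000 UMIs and 200 genes or more, with mitochondrial UMIs up to 10%, and no doublet caller was run. Counts were normalized to 10000 UMIs per cell, reduced to 10 principal components of 3000 variable genes without complement genes, and clustered with Leiden (leidenalg 0.10.2, scanpy 1.11.5, resolution 0.6). Clusters were named from marker lists, needing at least 3 markers, and these names may differ from the study's. MAC2+ meant log-normalized Lgals3 above the mean plus 1 SD over kept myeloid cells. Cells of D2-3 were placed by their 30 nearest neighbours.

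Raw UMIs were summed per library and cell type (at least 20 cells, 10 for border-associated macrophage-like cells, and no minimum for MAC2+ cells, of which a library held 12 to 179) and tested with edgeR 4.0.16 (quasi-likelihood, TMM, filterByExpr) in R 4.3.3, with the 3 groups in 1 fit, called at an adjusted p under 0.05. Shares of cells were compared with an exact permutation test over libraries. The test script was checked on simulated counts. Members, lists and tests were chosen with earlier results of these data known. All 9 members were named, and of the other complement genes those that passed and averaged 20 CPM or more in whichever group was higher, up to 4 per direction. Some items that these rules select are not reported here. DESeq2 1.42.0, other scalings, filters, cell sets and clusterings were tried, and each library was left out in turn. Replicate numbers were not taken to pair the libraries. Intervals cover counting error only where said.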

Additional observations from a re-analysis of the deposited data

Results flagged for a closer look

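The D0 change of C5ar1 differed between border-associated macrophage-like and microglia-like cells, with a log2 difference of -1.75 (adjusted p = 0.0298 by edgeR, interaction term, and 0.0911 without Ctrl-1 and 0.144 without D0-1). The D0 sums of the first type came from 73, 14 and 12 cells. The Ctrl cells of that type averaged 1491 CPM of the microglia marker P2ry12, against 93.6 CPM in D0-1. The D2-3 library, which was left out of the comparisons except as an alternative, held 0.908 CPM of C3 in its microglia-like cells, above the highest Ctrl library at 0.304 CPM and below D2-1 and D2-2. The same library held 51.3 CPM of Cfp, against at most 0.857 CPM in Ctrl and 2.90 CPM in D2-2. The 10 microglia markers summed to 8326 CPM in its microglia-like cells, against 16717 CPM in D2-1 and 17317 CPM in D2-2.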

How the results depend on the processing

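C3, which passed the filter only through D0 and D2, was called in both groups under every alternative except all kept myeloid cells, where D0 had 1.89 (adjusted p = 0.0607). In D0, 2442 genes were called in microglia-like cells, against 1382 with the Cell Ranger term, 496 with D2-3, 1251 in non-dividing cells and 1298 with thinned cells (1212 to 2506 with a library left out, 1376 without Ctrl-2, 1280 without Ctrl-3 and 1212 without D0-2), and members called fell from 3 to 1 with D2-3, with all kept myeloid cells and with no upper limit (3 to 3 with a library left out). In D2, 2296 genes became 1176, 1308, 1422 and 1422 under those 4, and 1446 without marker-positive cells, an alternative chosen after seeing the data (1102 to 3073 with a library left out, 1102 without D2-2, 1443 without Ctrl-2, 1362 without Ctrl-3 and 1464 without D2-1). Members in D2 numbered 5 without a filter and 1 with no upper limit (2 to 4 with a library left out). D2 against D0 gave 27 genes with DESeq2, 31 without a filter and 1 with thinned cells. MAC2+ gave 2091 genes, 586 in Ctrl alone, 5907 in all myeloid cells and 1201 with no library block and 1166 without marker-positive cells, also chosen after seeing the data, as was leaving out the cluster led by Ifit3, which kept each count of calls in microglia-like cells within 1.5 times (1391 to 2064 with a library left out, lowest without D0-1), and members 5 in all myeloid cells and 6 without a filter. Border-associated macrophage-like cells gave 32 genes in D0 and 517 without a filter (0 to 198 with a library left out), members 1 without a filter (0 to 1), and in D2 218 genes and 1 member without a filter (0 to 14 genes). The difference between the changes of the 2 macrophage types, with libraries left out as an alternative chosen after seeing the data, called 195 genes in D0 (99 to 415) and 57 in D2 (33 to 231), with 0 to 3 and 0 to 1 members.

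C4b in D0 and D2 and C3ar1 in MAC2+ cells, which were called, turned sign in all kept myeloid cells, and the other values that turned sign had not passed. C1qa in D0 was 0.22 with the Cell Ranger term, 0.00474 with D2-3, 0.0133 with DESeq2, 0.00139 without a filter, 0.0372 in non-dividing cells, 0.00490 with 2 groups alone and 0.0114 thinned, and with a library left out ran from -0.10 to 0.0475. With that term C1qb and C1qc in D2 were 0.16 and 0.21 (0.0440 and 0.0138 without D2 replicate 1). C5ar1 in D0 was -0.0885 in all myeloid cells, -0.0738 without marker-positive cells and -0.0201 thinned (-0.27 to 0.31), and in D2 was 0.79 with the Cell Ranger term, 0.54 with D2-3 and 0.0590 in non-dividing cells (-0.72 to 0.35). C3ar1 was -0.14 in D2 against D0 with D2-3 and -0.21 in MAC2+ of all myeloid cells. C4b in all myeloid cells was -0.23 in D0, -0.0120 in D2 and -0.56 in MAC2+, where it was also -7.36 in Ctrl alone (0 UMIs in MAC2+ cells), -0.35 with DESeq2 and -0.29 by Lgals3 UMIs (-0.95 to 0.28). In border-associated macrophage-like cells the D0 value of C4b ran from -1.29 to 0.55, its D2 value from -0.45 to 2.04, and Cfp from -1.45 to 2.32 in D2. The D2 difference between the macrophage types ran from -1.98 to 0.42 for C4b and -3.10 to 0.0400 for Cfp. The cause was not tested.

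The correlation of deviations of same-numbered libraries ran from -0.13 to 0.41, and only that of D0-1 with D2-1 was negative. For differently numbered libraries it ran from -0.38 to 0.35. These ranges overlapped, and the numbers were not taken to pair libraries, though the values do not exclude a pairing. With a replicate block, border-associated macrophage-like cells gave 0 genes in D0, C5ar1 in D2 was 0.24 and C3ar1 in D2 passed (0.58, adjusted p = 0.0315 by edgeR). With 2 or 3 libraries per group, and 16 Ctrl UMIs of C3, small changes of sparse genes were not detectable.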

Other observations

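In the microglia-like cluster led by Ccl12, C3 was found in 0 of 82 Ctrl cells, 2.72% of D0 and 2.41% of D2 cells, and in the cluster led by Egr1 in 0 of 1198 Ctrl cells, 1.93% of D0 and 1.21% of D2 cells. Unnamed low-UMI cells held 125 ± 37.5 CPM of C3ar1 (SD, n = 8) and 50.5 ± 19.8 CPM of C5ar1, beside 229 and 99.5 CPM in microglia-like cells.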
